A study of Mus musculus with 10 samples.

Results

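The enzymes that break down amino acids in the liver were followed through 9 genes chosen by name: Tat, Hpd, Hgd and Fah of tyrosine degradation, Tdo2 and Kmo of tryptophan degradation, Hal of histidine, Sds of serine and threonine, and Prodh of proline. Each symbol matched 1 of the 38922 gene identifiers in the data, and all 9 genes passed the filter on low counts. The livers came from wild-type male C57BL/6N mice aged 6 weeks, an inbred laboratory strain fed standard chow. A single intraperitoneal injection of saline (n = 5 mice) or of CD95-Ab at 0.5 µg per g of body weight (n = 5 mice) was given, and all animals were killed 6 h later. CD95-Ab is an antibody that activates CD95 (Fas), a death receptor that hepatocytes carry, and is used to cause acute liver failure. Whole liver was sequenced as RNA, so the values cover every cell type of the organ at a single time and dose.

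The liver is the main organ that degrades most amino acids, and it passes their nitrogen to the urea cycle and their carbon to glucose, ketone bodies or oxidation. Several of the enzymes are made almost only by hepatocytes, many of them in the periportal zone. The genes of the first steps are classic targets of hormones. TAT, TDO and SDS are known to be induced by glucocorticoids, and TAT and SDS also by glucagon, in fasting or after a meal rich in protein.

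In CD95-Ab-injected mice, 6 of the 9 genes were lower than in saline-injected controls, none was higher, and 3 did not pass the test (edgeR quasi-likelihood test, false discovery rate, FDR, of 0.05 or less over 13719 genes). Of all genes tested, 22.0% were lower and 25.4% higher by the same rule, 47.3% in either direction. The 9 genes were chosen with earlier results of these data known, so setting them beside these shares is a description and not a test. The genes that fell were Hal, Hpd, Tdo2, Hgd, Prodh and Fah, to between 44.9% and 62.3% of the saline mean. Tat, Kmo and Sds did not pass. With CPM scaled to secreted-protein genes of hepatocytes in place of TMM factors, only Hpd and Hgd of these 6 were lower and Tat was higher. With that scaling, 833 of the 13719 genes tested were lower and 6493 higher. The same 6 genes and none in the other direction had an unadjusted p under 0.05 in edgeR. DESeq2 also gave 6 lower and 0 higher at that level. Of all genes tested, 28.3% were higher in edgeR at that level. The share lower at that level was counted for neither edgeR nor DESeq2, so neither count of 6 can be set beside it. None of the 9 fell by a log2 fold change of 2 or more, which 1.11% of all genes tested did at an FDR of 0.05 or less.

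Upstream sequences are shown for the gene with the lowest fold change, Hal, for Hgd, which separated the groups, and for Tat, the one gene of the 9 with a positive fold change. They are the 250 bases before the RefSeq start site (assembly GRCm38.p6, plus strand for all 3 genes), in lower case, with matches to searched motifs in capitals.
Hal, chr10:93488518-93488767: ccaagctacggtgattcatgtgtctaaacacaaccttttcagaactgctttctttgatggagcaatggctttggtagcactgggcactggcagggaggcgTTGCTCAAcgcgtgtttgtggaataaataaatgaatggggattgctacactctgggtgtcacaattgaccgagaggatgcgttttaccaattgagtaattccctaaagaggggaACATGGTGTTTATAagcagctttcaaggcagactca
Hgd, chr16:37579903-37580152: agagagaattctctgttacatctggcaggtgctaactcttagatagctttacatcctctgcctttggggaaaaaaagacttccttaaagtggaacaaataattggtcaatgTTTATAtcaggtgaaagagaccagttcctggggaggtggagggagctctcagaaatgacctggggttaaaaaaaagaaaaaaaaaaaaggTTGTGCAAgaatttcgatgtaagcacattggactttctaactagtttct
Tat, chr8:109990186-109990435: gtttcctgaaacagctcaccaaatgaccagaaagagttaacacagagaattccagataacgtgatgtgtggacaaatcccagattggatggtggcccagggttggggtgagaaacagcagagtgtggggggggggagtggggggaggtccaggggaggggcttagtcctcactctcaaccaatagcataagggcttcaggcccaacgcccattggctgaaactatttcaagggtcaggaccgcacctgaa
The motifs were searched on both strands from 250 bases before to 50 after the start: the TATA box as TATAAA, the core of a glucocorticoid response element as ACANNNTGT, the C/EBP motif as TTGCNNAA, the FOXA motif as TGTTTNC, the HNF4 motif as CAAAGTCCA, the HNF1 motif as GTTAATNAT and the cyclic AMP response element as TGACGTCA. In Hal, the TATA box letters lay at positions -28 to -23 on the strand opposite to the gene. The glucocorticoid core at -36 to -28 shared 1 base with them. The C/EBP letters lay at -150 to -143 in Hal and at -49 to -42 and 14 to 21 in Hgd. Hgd also held the TATA box letters at -139 to -134, again on the opposite strand. The window of Tat held no match to these letters, nor did those of Fah, Hpd, Kmo and Prodh. Tdo2 held the TATA box letters at -229 to -224, the glucocorticoid core at -178 to -170 and the FOXA letters at -182 to -176. These FOXA and glucocorticoid matches overlap. All 250 upstream bases of Tdo2 lie in annotated exons, so its matches are within transcribed sequence of the annotation. The same holds for 197 upstream bases of Kmo, 102 of Prodh and 4 of Hpd, and for 0 of Hal, Hgd, Tat and Fah. Of 32841 promoter windows of this length, 13.6% held the TATA box letters, 6.85% the glucocorticoid core, 10.8% the C/EBP letters and 20.5% the FOXA letters, so each match is a description and not a site. For Sds no window was given.

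Tyrosine degradation begins with Tat, tyrosine aminotransferase (ENSMUSG00000001670, chromosome 8, 109990437 to 109999803 of GRCm38, plus strand), which removes the amino group of tyrosine. As CPM, which are counts per 1000000 after scaling with TMM factors, saline mice 1 to 5 were at 1816, 932, 1639, 1479.7 and 1569, and CD95-Ab mice 1 to 5 at 1933, 2025, 3213, 1144 and 921. CD95-Ab mice 1 to 3 lay above every saline mouse, mouse 4 lay within their range, and mouse 5 was the lowest of all 10. The mean was 1487 ± 334 CPM in saline mice and 1847 ± 902 CPM in CD95-Ab mice (SD, n = 5 each), a log2 fold change of 0.31 ± 0.32 (SE) with an interval (95%) of -0.38 to 1.003 (edgeR FDR = 0.441). Without CD95-Ab mouse 3 the log2 fold change of Tat was 0.02. No change lay within that interval, which reached further upward, to a log2 fold change of 1.003, than downward, to -0.38.

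Hpd, 4-hydroxyphenylpyruvate dioxygenase (ENSMUSG00000029445, chromosome 5, 123171807 to 123182727, minus strand), takes the product of Tat to homogentisate. It was at 1416, 1255, 1519, 1399 and 1564 CPM in saline mice 1 to 5 and at 589.6, 552, 864, 787 and 649.9 CPM in CD95-Ab mice 1 to 5. Every CD95-Ab mouse lay below every saline mouse. The mean fell from 1431 ± 120.2 to 689 ± 133 CPM (SD, n = 5 each), which was 48.1% of the saline mean (log2 fold change -1.05 ± 0.16 SE, edgeR FDR = 0.000265, exact permutation p = 0.00794, the smallest that 5 mice against 5 can give).

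Hgd, homogentisate 1,2-dioxygenase (ENSMUSG00000022821, chromosome 16, 37580153 to 37632020, plus strand), opens the aromatic ring. Saline mice 1 to 5 were at 474, 384, 423, 440.2 and 397 CPM and CD95-Ab mice 1 to 5 at 187, 214, 274, 227 and 236 CPM. The groups were again apart, and the lowest saline mouse stood well clear of the highest CD95-Ab mouse. The mean was 424 ± 35.97 in saline mice and 228 ± 31.6 in CD95-Ab mice, 53.7% of the saline mean (log2 fold change -0.90 ± 0.13 SE, edgeR FDR = 0.0002, exact permutation p = 0.00794).

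Fah, fumarylacetoacetase (ENSMUSG00000030630, chromosome 7, 84585159 to 84606722, minus strand), carries out the last step, and its inherited loss causes tyrosinaemia type I. It ranged from 451 to 624 CPM in saline mice and from 278 to 406 CPM in CD95-Ab mice, with no overlap. The mean fell from 525 ± 63.0 to 327 ± 53.4 CPM, or to 62.3% of the saline mean (log2 fold change -0.68 ± 0.15 SE, edgeR FDR = 0.00261, exact permutation p = 0.00794). Within tyrosine degradation, then, the 3 genes after Tat fell and separated the groups, while Tat overlapped between them.

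**Figure D1:**
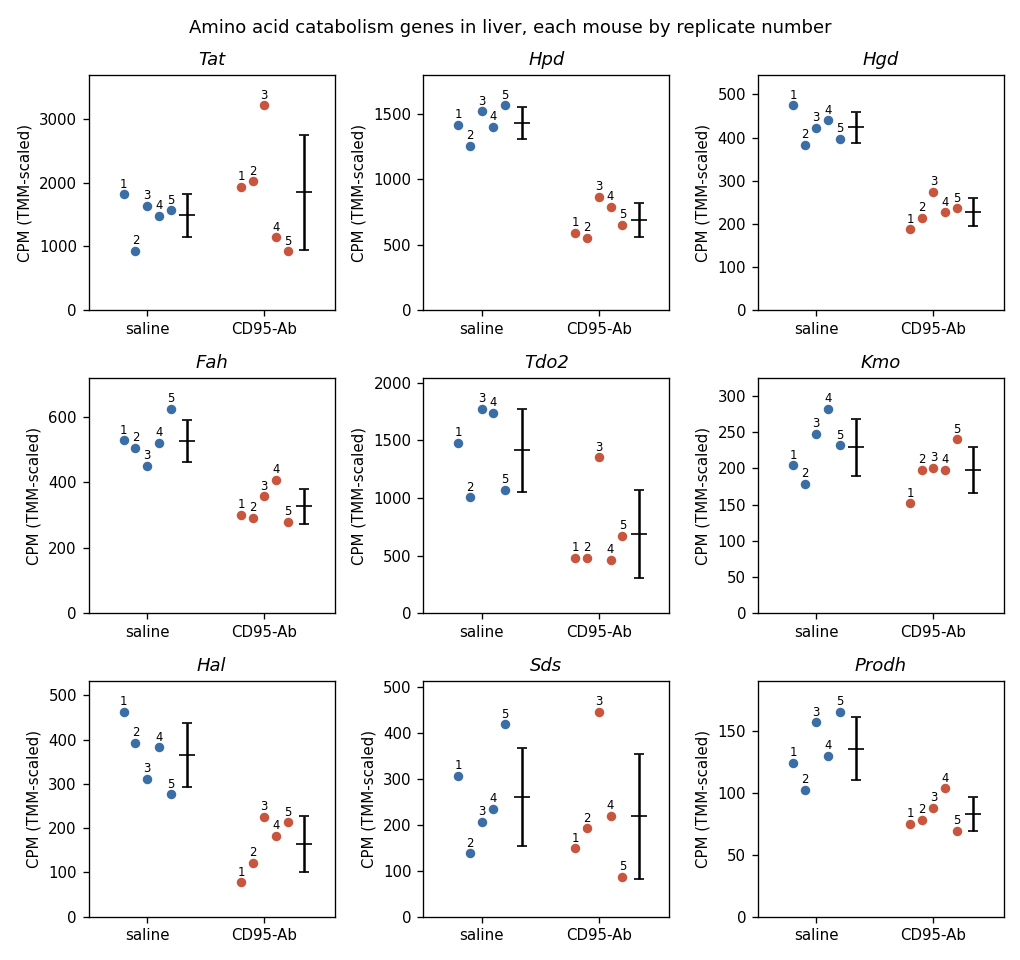
CPM of the 9 genes in each mouse, one panel a gene, with saline mice in blue and CD95-Ab mice in orange, the replicate number beside each point and a black bar for the mean ± SD (n = 5). Hpd, Hgd, Fah and Hal show no overlap between groups, and in Tat CD95-Ab mice 1 to 3 stand above mice 4 and 5.

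Tdo2, tryptophan 2,3-dioxygenase (ENSMUSG00000028011, chromosome 3, 81957090 to 81976202, minus strand), opens the indole ring of tryptophan and commits it to the kynurenine pathway. Saline mice 1 to 5 were at 1476, 1006, 1774, 1740.15 and 1070.1 CPM, and CD95-Ab mice 1 to 5 at 481, 479, 1353, 466 and 671 CPM. Of the CD95-Ab mice, 4 lay below every saline mouse, and mouse 3 lay within the saline range. The mean fell from 1413 ± 362 to 690 ± 380 CPM (log2 fold change -1.03 ± 0.32 SE, edgeR FDR = 0.0184, exact permutation p = 0.0238). Without CD95-Ab mouse 3 the log2 fold change was -1.43 (edgeR FDR = 0.00046). Without CD95-Ab mouse 2 it was -0.93 (edgeR FDR = 0.0492), the highest FDR among the fits that leave out 1 mouse.

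Kmo, kynurenine 3-monooxygenase (ENSMUSG00000039783, chromosome 1, 175620381 to 175662116, plus strand), acts further down the same pathway, on kynurenine itself. It ranged from 179 to 282 CPM in saline mice and from 152 to 239.9 CPM in CD95-Ab mice, so that the groups overlapped. The log2 fold change was -0.21 ± 0.16 (SE), with an interval (95%) of -0.56 to 0.13 (edgeR FDR = 0.293). A fall beyond that lower bound lay outside the interval, whereas no change lay within it.

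Hal, histidine ammonia-lyase (ENSMUSG00000020017, chromosome 10, 93488768 to 93519304, plus strand), removes ammonia from histidine in the first step of its breakdown and had the lowest fold change of the 9 genes. Saline mice 1 to 5 were at 462, 393, 311, 382 and 276 CPM and CD95-Ab mice 1 to 5 at 77.1, 122, 226, 182 and 213 CPM. All CD95-Ab mice were below all saline mice, and CD95-Ab mouse 1 was the lowest. The mean fell from 365 ± 73.0 to 164 ± 62.9 CPM, or to 44.9% of the saline mean (log2 fold change -1.16 ± 0.27 SE, edgeR FDR = 0.00428, exact permutation p = 0.00794).

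Sds, serine dehydratase (ENSMUSG00000029597, chromosome 5, 120476526 to 120483932, plus strand), turns serine into pyruvate for gluconeogenesis. It was at 306, 138, 206, 234 and 419 CPM in saline mice 1 to 5 and at 148.7, 192, 446, 219.6 and 86.7 CPM in CD95-Ab mice 1 to 5. The CD95-Ab group held both the highest and the lowest value, mice 3 and 5, and so spanned the saline group. The log2 fold change was -0.26 ± 0.40 (SE), with an interval (95%) of -1.12 to 0.61 (edgeR FDR = 0.623). Its counts are uncertain, since 29.6% of its exonic bases also lie in exons of Plbd2 or Gm15690 on the other strand and no source used here says that the counting used strand. The other 8 genes share no exonic base with another annotated gene.

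Prodh, proline dehydrogenase (ENSMUSG00000003526, chromosome 16, 18060357 to 18090203, minus strand), starts proline oxidation in mitochondria and had the lowest mean of the 9. It ranged from 103 to 166 CPM in saline mice and from 69.1 to 104 CPM in CD95-Ab mice, where 4 mice lay below every saline mouse. The mean fell from 136 ± 25.5 to 82.8 ± 13.6 CPM (log2 fold change -0.72 ± 0.16 SE, edgeR FDR = 0.00315, exact permutation p = 0.0159). Over the 9 genes, groups were fully apart for 4, all with the CD95-Ab mice below, a pattern shown by 14.7% of all genes tested.

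Depth did not limit these values. The totals were between 25965699 and 62097636 counts per mouse, at which 3 counts correspond to 0.048 to 0.116 CPM, and each of the 9 genes had between 2210 and 84601 counts in every mouse. The spread between mice was the larger error. As the SD of log2 CPM, it was 0.60 in saline and 0.86 in CD95-Ab mice for Sds, 0.37 and 0.71 for Tat, but 0.12 and 0.20 for Hgd. Saline mouse 2 was the lowest of its group for 7 of the 9 genes, and CD95-Ab mouse 3 the highest of its group for 6.

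**Figure D2:**
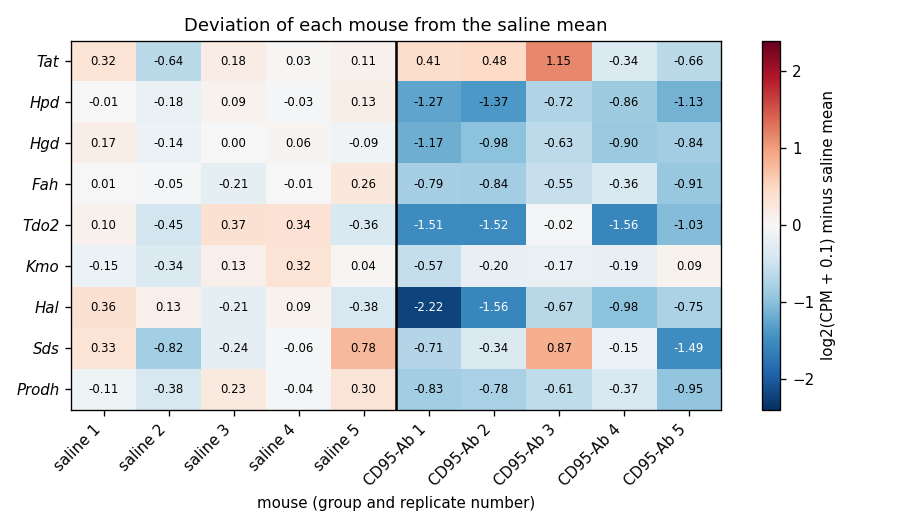
Deviation of each gene (rows) in each mouse (columns) from the mean of the saline mice, in log2 units of CPM, on a colour scale centred on 0. Hpd, Hgd, Fah, Hal, Prodh and Tdo2 are below 0 in all 5 CD95-Ab mice, and Tat, Sds and Kmo change sign among them.

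Levels were compared between genes only per length, as FPKM. In saline mice Hpd was the highest, with 1107 ± 80.4 FPKM, followed by Tat with 661 ± 159, Tdo2 with 633 ± 141, Fah with 383 ± 35.5, Hgd with 272 ± 39.3, Sds with 262 ± 91.6, Hal with 166 ± 33.6, Kmo with 88.6 ± 13.5 and Prodh with 66.2 ± 8.25 (SD, n = 5). The ranges of Tat and Tdo2 overlapped, as did those of Hgd and Sds, and of Sds and Hal, so these neighbours could not be ordered beyond their spread. The ranges of Kmo and Prodh also overlapped, but Kmo was above Prodh in all 5 saline mice. In CD95-Ab mice Tat came first with 777 ± 362 FPKM and Hpd second with 495 ± 58.3 FPKM, and their ranges overlapped. There, only Hgd against Hal and Kmo against Prodh were neighbours whose ranges were apart.

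Because the total of each mouse cancels in a ratio of 2 genes of the same mouse, all 36 pairs were compared between groups as log2 ratios of CPM. None of the 36 passed after adjustment (lowest adjusted p = 0.0571, exact permutation tests), and 12 had an unadjusted p of 0.05 or less. At 5 mice a group, 6 pairs at the smallest possible p were needed for any to pass, and 5 pairs reached it. The ratio of Tat to Hpd, consecutive enzymes, had a mean of 0.03 ± 0.29 (SD) in saline mice and 1.31 ± 0.72 in CD95-Ab mice, a difference of 1.28 with all CD95-Ab mice above all saline mice (exact permutation p = 0.00794). The other 4 were Hal to Kmo with -1.03, Hpd to Kmo with -0.86, Hgd to Kmo with -0.695 and Hpd to Fah with -0.38, each lower in every CD95-Ab mouse than in every saline mouse. The ratio of Fah to Prodh differed between group means by 0.02.

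**Figure D3:**
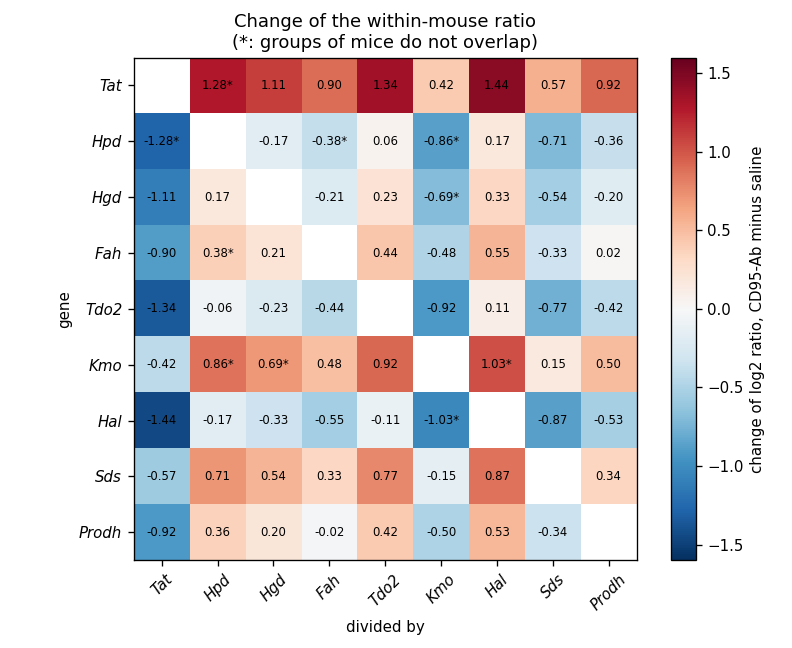
Change of the log2 ratio of CPM within a mouse (CD95-Ab mean minus saline mean, n = 5 each) for the gene of each row divided by the gene of each column, on a colour scale centred on 0, with an asterisk where the groups of mice do not overlap. Each pair appears once with each sign, and the row of Tat is above 0 against all 8 other genes, with an asterisk only against Hpd.

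The 9 genes were next set beside the rest of their pathways, 78 genes in 8 lists, of which 74 genes were tested. The lists, like the 9 genes, were chosen with earlier results of these data known, so their shares are descriptions and not tests. Among the 65 tested genes other than the 9, 46 fell (70.8%, against 22.0% of all genes tested), 0 rose and 19 did not pass, with a median log2 fold change of -0.63. By edgeR at an unadjusted p under 0.05, 1 of them was higher, Mat2a, and DESeq2 gave the same count. The median was -0.72 over the 9 genes and 0.01 over all genes tested.

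Of the 8 genes for phenylalanine and tyrosine, 7 fell (median -0.79). Qdpr, a dihydropteridine reductase that regenerates tetrahydrobiopterin, had a log2 fold change of -0.87 (edgeR FDR = 0.0019). Tat, with its value within the spread, thus belonged to a list in which most genes were lower.

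Of the tryptophan and kynurenine genes, 7 of 11 tested fell (median -0.71). Afmid, the formamidase that follows Tdo2, fell from 112 ± 24.9 to 41.5 ± 6.41 CPM (log2 fold change -1.44 ± 0.17 SE, edgeR FDR = 4.42e-05). Ido2, an enzyme with the same substrate as Tdo2, changed by -1.13 on the log2 scale (edgeR FDR = 0.0009), and Haao, which acts after Kmo and kynureninase, by -0.72 (edgeR FDR = 0.00336). Kmo therefore lay between lower genes as well, with its own value within the spread.

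All 4 histidine genes fell (median -0.93). After Hal come Uroc1, Amdhd1 and Ftcd, and the log2 fold changes of Amdhd1 and Ftcd were -0.93 for each (edgeR FDR = 0.00915 and 0.00158). Of the serine, glycine and threonine genes, 8 of 11 tested fell (median -0.63), among them Shmt1, a serine hydroxymethyltransferase, with -1.17 (edgeR FDR = 2.2e-05) and Agxt, which detoxifies glyoxylate, with -1.01 (edgeR FDR = 0.00284). Of the proline, hydroxyproline and ornithine genes, 4 of 6 tested fell (median -0.72). Aldh4a1, the step after Prodh, changed by -0.78 (edgeR FDR = 0.000997) and Prodh2, which oxidises hydroxyproline, by -0.81 (edgeR FDR = 0.0234). Oat, ornithine aminotransferase, was at 493 ± 135 CPM in saline and 538 ± 117 CPM in CD95-Ab mice, a log2 fold change of 0.13 ± 0.22 (edgeR FDR = 0.658).

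The remaining lists hold none of the 9 genes. Of 20 branched-chain genes tested, 13 fell (median -0.56). Ppm1k, the phosphatase that activates branched-chain keto acid dehydrogenase, fell from 60.2 ± 8.02 to 19.96 ± 4.14 CPM (log2 fold change -1.59 ± 0.16 SE, edgeR FDR = 1.25e-05), with -1.52 for Bcat2, a branched-chain aminotransferase (edgeR FDR = 4.14e-05), and -0.57 for Hibadh, of valine breakdown (edgeR FDR = 0.0165). Of 4 lysine genes, 3 fell (median -0.61), with the lowest fold change in Dhtkd1, a 2-oxoadipate dehydrogenase component, from 48.6 ± 5.76 to 13.8 ± 4.66 CPM (log2 fold change -1.81 ± 0.21 SE, edgeR FDR = 3.56e-05), and with Gcdh, glutaryl-CoA dehydrogenase, at -0.66 (edgeR FDR = 0.00515). Of 10 methionine and cysteine genes, 6 fell (median -0.65), including Bhmt2 with -1.09 (edgeR FDR = 0.000248) and Ahcy, which cleaves S-adenosylhomocysteine, from 1604 ± 136 to 796 ± 94.9 CPM (log2 fold change -1.01 ± 0.14 SE, edgeR FDR = 0.000145). Gnmt, glycine N-methyltransferase, was at -0.63 (edgeR FDR = 0.0448) and missed the threshold when any 1 of 7 mice was left out, as Prodh2 did for 3 mice.

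**Figure D4:**
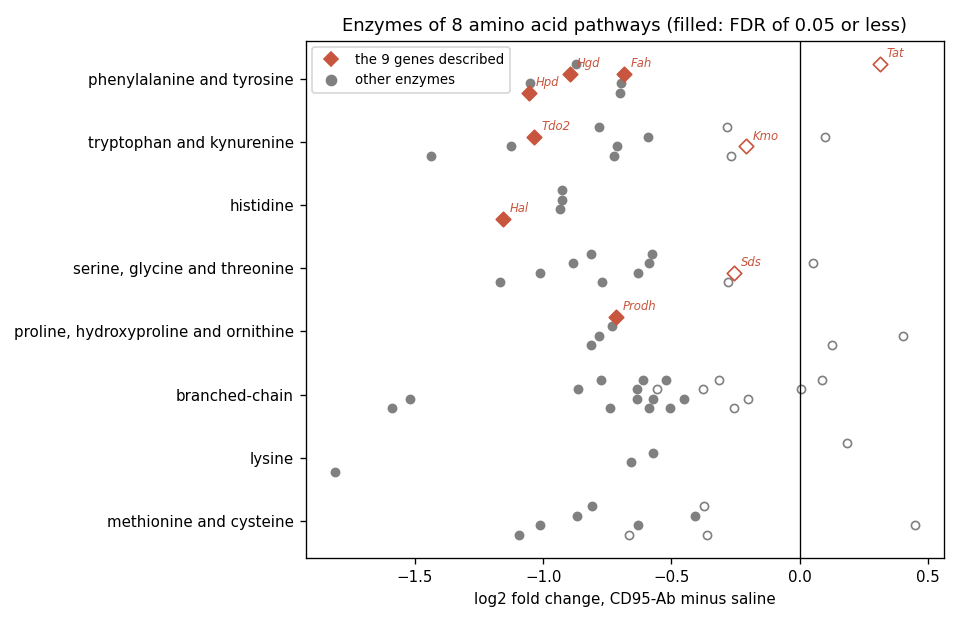
Log2 fold change (CD95-Ab minus saline) of every tested enzyme in the 8 amino acid lists, one row a list, with the 9 genes described as orange diamonds with their names the other enzymes as grey circles, and filled symbols where the FDR is 0.05 or less. Most points lie left of 0, 52 of 74 passing the test as lower, and Tat lies right of 0.

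Transcription factors and coactivators known to act on these genes were measured in the same livers. Of 13, 7 fell, 1 rose and 5 did not pass. Klf15, a factor that drives amino acid catabolism in liver and muscle, fell from 130.1 ± 24.4 to 28.7 ± 5.29 CPM (log2 fold change -2.18 ± 0.17 SE, edgeR FDR = 2.03e-06). Cebpa, a C/EBP factor of mature hepatocytes, fell from 233 ± 21.1 to 75.5 ± 15.3 CPM (log2 fold change -1.63 ± 0.15 SE, edgeR FDR = 7.81e-06). Ppara, a receptor for fatty acids, changed by -1.596 (edgeR FDR = 0.00261) and Ppargc1a, a fasting-induced coactivator, by -1.52 (edgeR FDR = 0.00459). The one that rose, Cebpb, a C/EBP factor of the acute phase named here after its value was seen, had a log2 fold change of 1.27 ± 0.31 (edgeR FDR = 0.00537). Nr3c1, the glucocorticoid receptor, was at 55.3 ± 12.8 and 51.6 ± 13.8 CPM (log2 fold change -0.10, edgeR FDR = 0.731), and Hnf4a, a factor of hepatocyte identity, had a log2 fold change of -0.34 (edgeR FDR = 0.157).

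Among 8 genes known to be induced by glucocorticoids, 3 fell, 1 rose and 4 did not pass (median -0.08). G6pc, glucose-6-phosphatase, fell from 579.7 ± 293 to 32.3 ± 14.6 CPM (log2 fold change -4.16 ± 0.43 SE, edgeR FDR = 1.53e-05). Tsc22d3 had a log2 fold change of -2.26 (edgeR FDR = 9.9e-05) and Pck1, of gluconeogenesis, one of -0.97 (edgeR FDR = 0.00202). Sgk1, a kinase, rose with a log2 fold change of 0.86 ± 0.30 (edgeR FDR = 0.0326), and this call was lost without any 1 of 4 mice, at 0.52 (edgeR FDR = 0.0945) without CD95-Ab mouse 3.

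Chosen after their values were seen, Fkbp5 and Zbtb16 of the same list are given beside Tat. Fkbp5 was at 43.8, 33.6, 140.6, 134 and 67.0 CPM in saline mice 1 to 5 and at 68.4, 62.4, 132, 13.7 and 19.2 CPM in CD95-Ab mice 1 to 5. Zbtb16 was at 10.1, 2.99, 22.9, 35.4 and 12.4 CPM in saline mice and at 26.0, 31.8, 43.0, 1.82 and 3.50 CPM in CD95-Ab mice. In Tat, Fkbp5 and Zbtb16 alike, CD95-Ab mice 1 to 3 were above mice 4 and 5, and saline mouse 2 was the lowest saline mouse. Pck1 had the same order, and the other 5 of the 8 genes (Tsc22d3, Per1, Sgk1, Dusp1 and G6pc) did not.

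Other measures of the tissue moved with the groups. The sum of 12 genes for proteins that hepatocytes secrete was 132535 to 157158 CPM in saline mice and 70096 to 111683 CPM in CD95-Ab mice, 61.3% of the saline mean. Alb was the largest part of this sum, with means of 84727 CPM in saline and 41434 CPM in CD95-Ab mice. Of the 12 genes, 6 fell, none rose and 6 did not pass, with a median log2 fold change of -0.56. The sum of the 9 genes was 4893 to 6807 CPM and 3365 to 7022 CPM, or 70.9% of the saline mean, with CD95-Ab mouse 3 the highest of all 10. Of the mean sums of 6271 CPM in saline and 4444 CPM in CD95-Ab mice, Tat, which did not pass, held 1487 and 1847 CPM. Of 7 periportal markers 4 fell, with sums of 9170 to 12638 and 5125 to 8920.1 CPM. Of 7 pericentral markers 1 fell and 1, Glul (named after its value was seen), rose, with sums of 5472 to 9190 and 5172 to 6593 CPM. In bulk liver, fewer hepatocytes and less RNA per hepatocyte cannot be told apart.

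Markers of other cells were higher in CD95-Ab mice. The sums in saline and CD95-Ab mice were 3.50 to 9.08 and 97.2 to 396 CPM for neutrophils (4 of 6 genes tested, all 4 higher, with Ly6g and Mpo under the filter on low counts and Mpo at 0 in some mice), and 135 to 325 and 1064 to 34009 CPM for erythroid cells (6 of 6 higher). They were 48.5 to 99.4 and 141 to 241 CPM for endothelial cells (5 of 6 higher), 136 to 213 and 309 to 592 CPM for stellate cells (3 of 6), 1.35 to 4.95 and 6.01 to 13.9 CPM for lymphocytes (5 of 7), and 2.96 to 4.58 and 23.7 to 99.0 CPM for cholangiocytes (3 of 4). For macrophages, 2 of 6 were higher and 1 lower, with overlapping sums of 84.1 to 252.1 and 152 to 305 CPM. The cholangiocyte sum was mostly Sox9, at a mean of 58.4 CPM in CD95-Ab mice, against 2.63 for Krt19, 1.53 for Epcam and 1.56 for Krt7. In CD95-Ab mouse 3, 6 of the 9 genes were highest within the group. Its sums were the highest of the group for erythroid cells, neutrophils, endothelial cells, stellate cells, cholangiocytes, secreted proteins and periportal markers. They were the lowest of the group for pericentral markers (5172 CPM) and lymphocytes (6.01 CPM), and in between for macrophages (247 CPM). The part of these cells in the values of the 9 genes was not tested.

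When CPM were scaled so that the 12 secreted-protein genes were level between mice, the median log2 fold change of all genes moved up by 0.48. Of all calls, 88.6% were then higher, against 53.6% with TMM factors. Of 13719 genes tested, 6493 were then called higher and 833 lower. Under that scaling, Hpd and Hgd fell, Tat was higher (log2 fold change 0.74 ± 0.28 SE, edgeR FDR = 0.0397), and Tdo2, Hal, Fah and Prodh missed the threshold with FDR of 0.106, 0.0534, 0.19 and 0.175. The signs of Sds and Kmo turned positive without passing. Relative to the median of all genes, the log2 fold changes stayed close in both scalings, with 0.31 and 0.26 for Tat, -1.06 and -1.08 for Hpd, -1.16 and -1.17 for Hal and -0.22 and -0.21 for Kmo. Since the scaling raises every gene by a like amount, this closeness follows from the method and is no separate result. The number of genes that fell thus depended on the scaling.

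**Figure D5:**
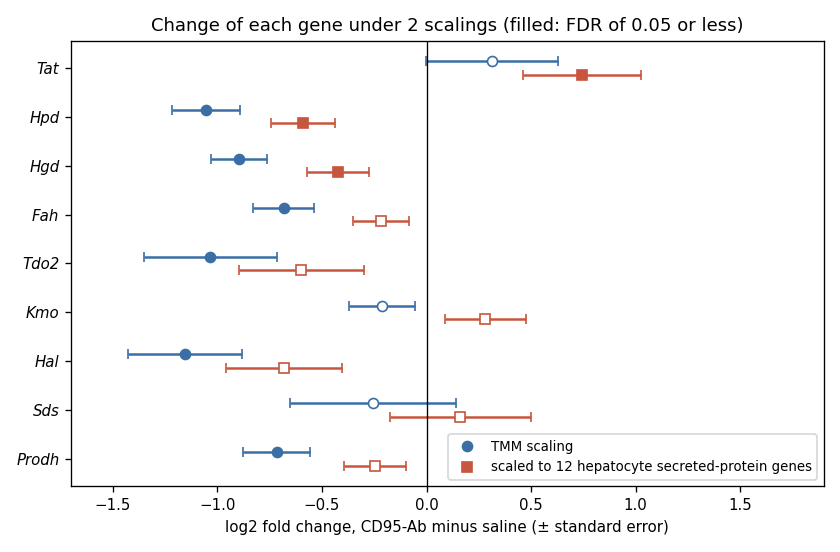
Log2 fold change ± SE (CD95-Ab minus saline) of the 9 genes with TMM scaling (circles) and with scaling to 12 hepatocyte secreted-protein genes (squares), filled where the FDR is 0.05 or less. Filled circles mark 6 genes as lower, and filled squares mark Hpd and Hgd as lower and Tat as higher.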

How the data were processed

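Per the labels, liver RNA was read as pairs with the TruSeq kit. With RSEM 1.2.19 (per the submitters' processing notes) the authors made the expected counts, which they deposited per gene and mouse as whole numbers without normalization. They also deposited FPKM, scaled for length and total, which served here only for levels between genes and in 1 alternative. RSEM shares out reads that match several genes. The mouse annotation release, genome build and strand setting are not given in the sources used here. Symbols came from GENCODE mouse release 21 (37606 of 38922 identifiers).

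Groups and replicate numbers came from the sample titles. Genes were kept by filterByExpr (minimum count of 10), scaled with TMM factors and tested by quasi-likelihood (edgeR 4.0.16, R 4.3.3) on a design holding only the group, with Benjamini-Hochberg adjustment over all genes tested. The SE was derived from the F statistic. Single genes and ratios were compared with two-sided exact permutation tests on log2(CPM + 0.1). The exact tests of single genes were not adjusted, and those of the ratios were adjusted over the 36 pairs. DESeq2 1.42.0 and limma 3.58.1 served as alternatives, next to other size factors, filters, tests, thresholds and prior counts, a fit blocked on replicate number, and fits that each leave out 1 mouse. The code was tested on simulated counts. The genes and lists were chosen with earlier results of these data known. Named are the 9 genes, from each list up to 2 others with the largest change past the threshold and the most abundant one, up to 4 regulators per list, Nr3c1 and Hnf4a, and exceptions stated as such, apart from items that are not reported here. Promoter windows came from RefSeq (8 of the 9 genes matched). Ranges and intervals cover these mice, and floors cover counting error only.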

Additional observations from a re-analysis of the deposited data

How the results depend on the processing

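The count of 6 lower and 0 higher genes among the 9 held in all alternatives but 3. At an FDR of 0.01, 5 were lower, since Tdo2 was not called, and 13.8% of all genes tested were lower. Scaled to hepatocyte secreted-protein genes, 2 were lower and 1 higher, and 15 of the other enzymes were lower and 6 higher, against 46 and 0. Of 13719 genes tested, 833 were lower and 6493 higher with that scaling. The log2 fold changes that turned were then 0.16 for Sds, 0.28 for Kmo, 0.40 for Nr3c1 and 0.15 for Hnf4a. The scaling itself raises every gene by a like amount. With a log2 fold change past 2 required, 0 of the 9 and 0 of the others were lower. With each mouse left out in turn, 6 of the 9 genes were lower and 0 were higher in every fit. The others ranged from 41 to 47 lower and from 0 to 1 higher (1 without CD95-Ab mouse 4 and 1 without mouse 5). Of all genes tested, from 2474 of 13860 (without CD95-Ab mouse 2) to 3396 of 13970 (without CD95-Ab mouse 4) were lower in these fits. For the 36 pairs, leaving out a mouse says nothing of stability, since 12 pairs at the smallest p would then be needed for any to pass. Tat ranged from 0.02 to 0.48 and Sds from -0.70 to -0.03. Oat ranged from -0.002 (without saline mouse 2) to 0.231, and Nr3c1 from -0.23 to 0.023 (without CD95-Ab mouse 4).

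With the replicate block, 6 of the 9 genes were lower and 0 higher, and 45 of the others were lower and 0 higher. Of 13719 genes tested, 2677 were then lower and 3310 higher, 5987 in all, against 6495 in the main fit. Mice of the same number did not deviate together (correlations from -0.27 to 0.26), and no source says that the numbers pair the mice. So few pairs cannot exclude a pairing.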

Other observations

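The genes whose deviations from the saline mean, in log2 CPM over the 10 mice, lay nearest to those of Tat among 12740 protein-coding genes were Igfbp5 (Euclidean distance 0.84), Aass, the first enzyme of lysine breakdown (0.85), and Pard6g (0.90). Aass was at 254 ± 41.0 CPM in saline mice and 288 ± 117 CPM in CD95-Ab mice. Nearest to Hal were Hsd3b3 (0.49), Shank2 (0.58) and Camk1d (0.69), with log2 fold changes of -1.31, -1.17 and -1.16, whose direction follows from how they were chosen. Hsd3b3 has close paralogs among which RSEM shares reads, so its value is uncertain.

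Of the 78 enzymes, 4 had too few counts to be tested. Ido1, which degrades tryptophan outside the liver, had at most 1 count in any mouse, Tdh at most 1, and Bcat1 at most 2. Pycr1 had 5 to 15 counts, or 0.188 to 0.423 CPM in saline and 0.199 to 0.404 CPM in CD95-Ab mice.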
